A study of Homo sapiens with 9 samples.

Results

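The comparison described here is between A2780 cells given cisplatin and A2780 cells given DMSO, over every row of the deposited count table that carries an Ensembl gene identifier. That rule takes 19974 of the 24542 rows and 6 of the 9 libraries. A2780 is an established human ovarian carcinoma cell line, labelled wild type in every group and grown in DMEM with 10% serum. The control group received 0.5% DMSO for 96 h (3 libraries), and the cisplatin group received 0.6 uM cisplatin for 96 h (3 libraries), a dose the labels call the IC80. Another group of 3 libraries received 5.5 uM Pt-ttpy, a platinum complex made to bind G-quadruplex DNA, also at its labelled IC80 for 96 h. It is used here for the shared estimate of spread and for 1 direct comparison of the drugs. The replicates are labelled as biological, but nothing says which cultures were handled on the same day. The cells of both drug groups were thus sampled after 96 h in a dose that the labels equate with 80% inhibition, and the cisplatin vehicle is not given in the sources used here.

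Cisplatin binds neighbouring purines in DNA and leaves crosslinks within and between strands, which block replication and transcription. The lesions activate the ATR and ATM kinases, and these stabilise p53 by releasing it from MDM2, the ubiquitin ligase that otherwise has it degraded. p53 then raises transcription of genes that halt the cell cycle, repair DNA, alter metabolism or start apoptosis, and A2780 is a line commonly used for this response because its p53 is functional. Nucleotide excision repair removes the crosslinks within a strand, translesion polymerases copy past them, and the Fanconi anemia and homologous recombination proteins deal with those between strands. Copper transporters, glutathione and metallothioneins are the classic determinants of how much platinum reaches DNA.

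Library totals lay between 31264474 and 40826035 counts. DMSO 2 and cisplatin 2 stood apart from the other 7 libraries: their counts followed transcript GC content in the opposite direction (Spearman rho 0.512 and 0.413, against -0.341 to -0.16 in the other libraries), and they lay at -50 and -39 on the second principal component, where the others were between 4.1 and 21.3. Since 1 such library sits in each of the groups compared, each count was also taken without this pair. The 13 genes of mitochondrial DNA took 1.755 to 1.888% of the counts in DMSO and 4.21, 0.756 and 2.029% in cisplatin libraries 1 to 3. Markers of blood and endothelial cells were sparse. None of the 10 erythroid genes had enough counts to test, and only 3 of 12 immune and 2 of 8 endothelial markers did. The leukocyte gene PTPRC had 0, 0 and 4 reads in DMSO and 0 in each cisplatin library. Fibroblast markers were not sparse, with 9 of 11 tested and a summed level of 1101 to 1208 CPM in DMSO. Nor were pluripotency and neural markers, with 5 of 10 tested and 1028 to 1167 CPM in DMSO. Of the ovarian and Mullerian markers, 6 of 13 could be tested and none was called. Their summed level was 42.0 to 63.1 CPM in DMSO and 48.8 to 54.6 CPM in cisplatin, most of it from FOXL2, a transcription factor of ovarian granulosa cells (38.4 to 58.3 CPM in DMSO). AMH reached 1.32 to 3.67 CPM in DMSO, and FOLR1, MSLN, ESR1 and CLDN6 stayed below 1 CPM in all 6 libraries. Of those not tested, PAX8 had 0 reads in every DMSO library and 3, 12 and 10 in the cisplatin libraries, and WT1 had 0, 8 and 3 reads in DMSO and 0 in each cisplatin library.

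Of the 19974 genes, 13383 had enough counts to be tested, and 2892 of them (21.6%) changed at an adjusted p under 0.05 (edgeR's quasi-likelihood F test on all 9 libraries, Benjamini-Hochberg adjusted). More reads after cisplatin were found for 1385 genes (10.3% of those tested) and fewer for 1507 (11.3%). The sizes were unequal: the median rise was 1.93-fold and the median fall 1.41-fold, 637 genes rose and 45 fell by at least 2-fold, and 195 rose and 8 fell by at least 4-fold. The 3 cisplatin libraries did not overlap the 3 DMSO libraries for 2871 of the 2892 genes. These genes were picked by a test on the same libraries, so that count is no separate support. The share over all tested genes is not given. The balance between directions depended on scaling, with 1627 higher and 903 lower under upper-quartile factors and 1673 higher and 933 lower under library totals, which move the median of all genes up by 0.08 and 0.09 on the log2 scale. Without DMSO 2 and cisplatin 2 the test called 1910 genes higher and 2538 lower of 13431 tested. With the 6 DMSO and cisplatin libraries alone the test called 753 higher and 388 lower, a larger loss among falls than among rises. The gene lists were not recounted in that fit. List counts given below for another fit or scaling are to be read against that fit's own numbers, not against the 10.3% and 11.3%.

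**Figure D1:**
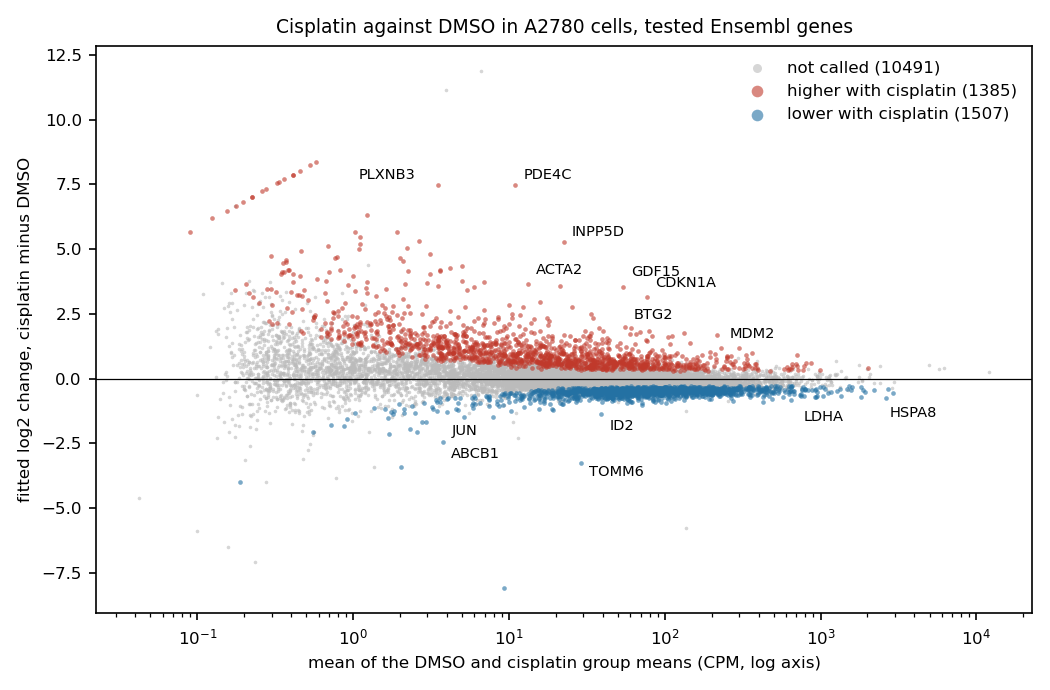
Each point is 1 tested gene; the x axis gives the mean of the DMSO and cisplatin group means in CPM (counts scaled to library size by TMM; log axis) and the y axis the fitted log2 change, cisplatin minus DMSO. The 1385 genes called higher reach much larger changes than the 1507 called lower, whose median change is -0.49, and the straight line of red points at the upper left holds genes with no reads in DMSO, whose fitted change is set by the prior count.

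Across the 6 lists of p53 targets and regulators, 71 different genes were tested, and 43 rose (22 of them by at least 2-fold) while 2 fell, GTSE1 and THBS1. The background for these counts is 10.3% of all genes higher and 11.3% lower. The median change of the 71 genes was 0.64 on the log2 scale against -0.03 for all tested genes. In the sentences that follow, levels are CPM with TMM scaling for libraries 1, 2 and 3 of each group in that order, and changes are log2(cisplatin/DMSO) ± SE from the same fit.

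Of 12 tested targets that act in cell-cycle arrest, 9 rose and GTSE1 fell (log2 -0.42). CDKN1A, which encodes the cyclin-dependent kinase inhibitor p21 (GRCh38, chromosome 6, 36676460 to 36687339), stood at 15.39, 16.95 and 14.53 CPM in DMSO and at 142.0, 160.2 and 113.8 CPM in cisplatin. Every cisplatin library was far above every DMSO library, an 8.88-fold rise (3.15 ± 0.15, adjusted p 1.2e-06). BTG2, an antiproliferative cofactor of the CCR4-NOT deadenylase, went from 21.2, 22.6 and 23.3 CPM to 89.9, 96.5 and 80.9 CPM (1.99 ± 0.12, adjusted p 4.63e-06). GADD45A, a stress sensor that also takes part in repair, measured 7.29, 7.01 and 6.41 CPM in DMSO and 28.8, 33.8 and 24.1 CPM in cisplatin (2.06 ± 0.16, adjusted p 2.25e-05). SFN, the 14-3-3 sigma protein that holds mitotic kinase complexes in the cytoplasm, measured 2.95, 3.32 and 2.40 CPM in DMSO and 13.5, 17.6 and 11.2 CPM in cisplatin (2.29 ± 0.24, adjusted p 0.000213). None of these 4 genes had overlapping groups, and none lost its call when any 1 library was left out.

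Among 15 tested targets linked to cell death, 10 rose and none fell. TP53I3, a quinone oxidoreductase tied to oxidative stress, went from 33.8, 40.0 and 30.6 CPM to 127, 144 and 98.7 CPM (1.83 ± 0.15, adjusted p 3.19e-05). TP53INP1, a cofactor in stress-induced death and autophagy, went from 27.3, 19.2 and 27.8 CPM to 105, 102 and 82.4 CPM (1.96 ± 0.15, adjusted p 2.58e-05). The BH3-only killer BBC3 (PUMA) had 9.06, 10.7 and 7.99 CPM in DMSO and 23.5, 31.2 and 20.7 CPM in cisplatin, and the pore former BAX had 38.0, 45.0 and 33.9 CPM against 69.3, 80.2 and 65.0 CPM. Their changes were 1.44 ± 0.19 (adjusted p 0.000734) and 0.88 ± 0.13 (adjusted p 0.00142), so the gene for the initiator rose more on the log2 scale than the gene for the effector, though the difference between the 2 changes was not tested. Of the death receptors, TNFRSF10B (TRAIL receptor 2) moved from 152, 171 and 150 CPM to 279, 283 and 248 CPM (0.78 ± 0.10, adjusted p 0.000515). FAS measured 4.39, 2.86 and 4.59 CPM in DMSO and 18.6, 8.86 and 18.4 CPM in cisplatin, the lowest being cisplatin 2 (1.95 ± 0.29, adjusted p 0.00171). The exons of FAS overlap ACTA2 on the other strand, those of TP53I3 overlap FAM228B and those of TNFRSF10B overlap RHOBTB2, and whether the counting used strand is not given. APAF1 (0.46), which forms the apoptosome, PIDD1 (0.48) and AEN (0.52) rose by less. PMAIP1, the gene of NOXA, had 0 reads in all 6 libraries and was not tested, a value that cannot be read as absence, since GPX1, which most cells express, also had 0 to 4 reads in each library.

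In the p53 feedback loop, 6 of 11 tested genes rose. MDM2 (chromosome 12, 68808176 to 68850686) went from 152, 114 and 160 CPM to 367, 258 and 330 CPM (1.17 ± 0.15, adjusted p 0.000641), and no cisplatin library was within the DMSO range. PPM1D, the phosphatase WIP1 that switches the checkpoint off, moved from 70.1, 69.5 and 71.7 CPM to 139, 117 and 124 CPM (0.84 ± 0.10, adjusted p 0.000423). CCNG1, a cyclin that recruits phosphatase to MDM2, had 220, 132 and 201 CPM in DMSO and 324, 316 and 317 CPM in cisplatin (0.79 ± 0.15, adjusted p 0.00605). MDM2 shares exon sequence with the gene CPM on the opposite strand.

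Among the targets that repair DNA or supply nucleotides, 7 of 12 rose and none fell. DDB2 and XPC, which recognise the damage that global-genome nucleotide excision repair removes, both rose. DDB2 measured 36.4, 49.3 and 37.5 CPM in DMSO and 106, 125 and 105 CPM in cisplatin (1.45 ± 0.14, adjusted p 8.04e-05), and XPC, whose exons overlap LSM3, measured 51.2, 63.2 and 50.7 CPM against 90.3, 118 and 93.7 CPM (0.87 ± 0.13, adjusted p 0.0018). POLH encodes polymerase eta, the polymerase best known for copying across platinum crosslinks. It went from 26.4, 24.5 and 21.5 CPM to 45.98, 52.96 and 46.66 CPM (1.01 ± 0.12, adjusted p 0.000409). RRM2B, the p53-induced subunit of ribonucleotide reductase, rose from 67.4, 30.6 and 58.9 CPM to 129, 93.7 and 115 CPM (1.10 ± 0.23, adjusted p 0.00918), whereas RRM2, the subunit made in S phase, fell from 430, 442 and 416 CPM to 315, 218 and 294 CPM (-0.64 ± 0.12, adjusted p 0.00601). The cisplatin and DMSO libraries of both subunit genes did not overlap.

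Metabolic targets of p53 had 11 of 18 tested genes higher and none lower. SPATA18, needed for removing damaged mitochondrial content, rose from 4.81, 6.07 and 8.29 CPM to 44.4, 48.1 and 39.6 CPM (2.78 ± 0.19, adjusted p 8.12e-06). FDXR, the ferredoxin reductase of iron-sulphur cluster and steroid synthesis, rose from 47.6, 63.1 and 42.4 CPM to 141, 192 and 140 CPM (1.63 ± 0.17, adjusted p 0.000163). The sestrins, which restrain mTORC1, moved together: SESN1 changed by 1.22, SESN2 by 0.93 and SESN3 by 0.86 on the log2 scale. Of the 7 tested secreted factors, 4 rose. GDF15, a TGF-beta family cytokine that acts on the brainstem to lower appetite, stood at 6.89, 11.6 and 6.99 CPM in DMSO and at 104, 116 and 76.7 CPM in cisplatin (3.55 ± 0.23, adjusted p 7.49e-06). THBS1, an antiangiogenic matrix protein, fell (-1.32 ± 0.34, adjusted p 0.02), and its call was lost without DMSO 3, cisplatin 1 or cisplatin 2.

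**Figure D2:**
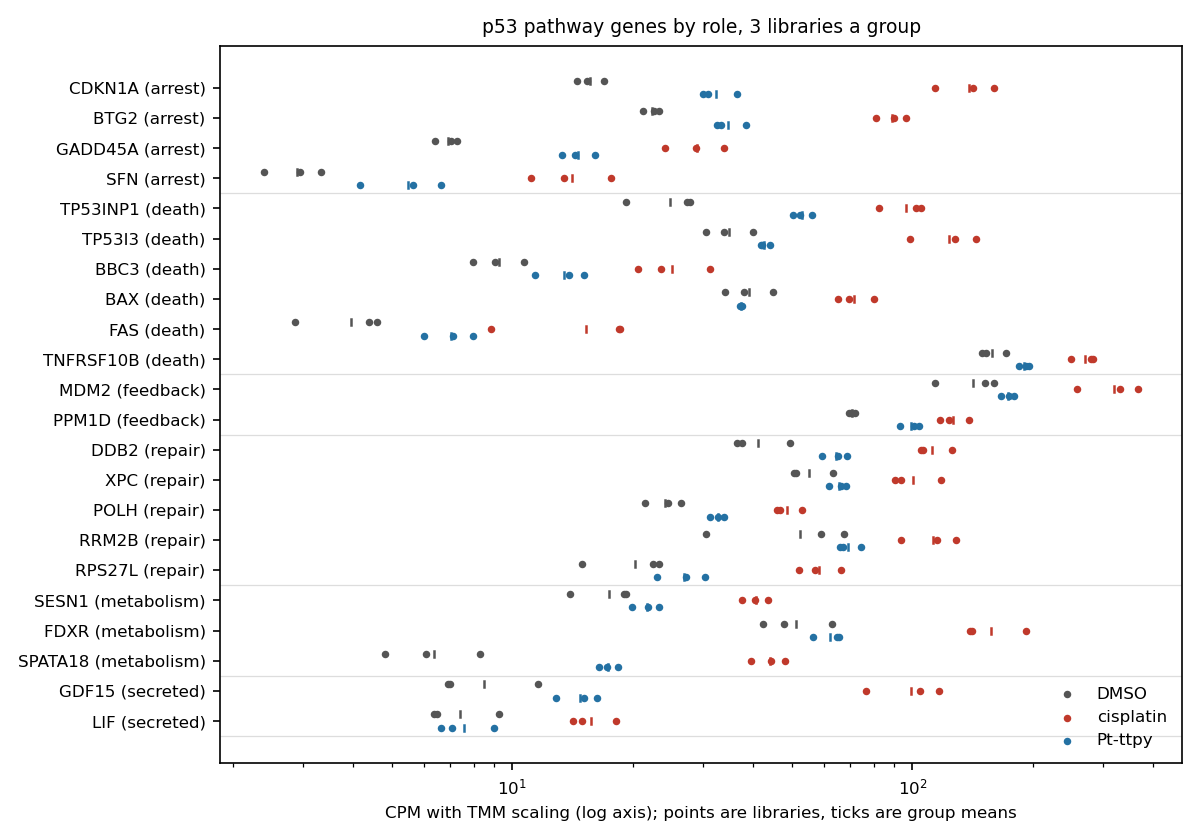
Points give the CPM (TMM-scaled, log axis) of 22 p53 pathway genes in each of 3 DMSO, 3 cisplatin and 3 Pt-ttpy libraries, with ticks at group means, ordered by role. For each gene shown the cisplatin points lie to the right of the DMSO points, and for CDKN1A they run from 113.8 to 160.2 CPM while the DMSO points stay between 14.53 and 16.95.

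The 12 largest rises among genes that have a symbol, whose mean reached 5 CPM with or without drug and whose libraries did not overlap, mostly started from very low levels in DMSO, and none of the 12 lost its call in any leave-one-out fit. INPP5D encodes the SHIP1 phosphatase that opposes PI3-kinase signalling and is best known from blood cells (chromosome 2, 233059967 to 233207903). It went from 0.76, 1.117 and 1.498 CPM to 39.5, 62.8 and 28.7 CPM (5.27 ± 0.33, adjusted p 5.86e-06). PDE4C, a cyclic AMP phosphodiesterase, had 0, 12 and 1 reads in DMSO and 18, 29.13 and 17.93 CPM in cisplatin (7.48 ± 0.61, adjusted p 3.48e-05). PLXNB3, a semaphorin receptor whose exons overlap SRPK3, had 0, 0 and 4 reads in DMSO and 5.44, 10.1 and 5.42 CPM in cisplatin. The other 9 were MB (myoglobin, log2 5.33), TSPAN1 (4.82), GRIP2 (4.37), GRHL3 (4.29), CYGB (cytoglobin, 4.16), HES2 (4.05), PRODH (proline dehydrogenase, 3.76), RINL (3.75) and GASK1B (3.69). Fitted changes of genes this close to 0 in DMSO depend on the prior count. GRHL3, a transcription factor of surface epithelia, is another example, with 0.56, 0.23 and 0.42 CPM in DMSO and 7.41, 9.76 and 6.88 CPM in cisplatin. That the groups of these 12 genes did not overlap was a condition of the choice and is no separate support.

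Falls were smaller, and the 12 largest were taken by the same rule, which leaves out 6 of the 8 genes that fell by at least 4-fold. ABCB1, the P-glycoprotein efflux pump (chromosome 7, 87503633 to 87713323), fell from 6.64, 6.70 and 5.64 CPM to 1.51, 0.782 and 1.25 CPM (-2.43 ± 0.29, adjusted p 0.000418). ID2, an inhibitor of basic helix-loop-helix factors, fell from 59.6, 55.1 and 54.1 CPM to 24.2, 24.2 and 17.5 CPM (-1.36 ± 0.15, adjusted p 0.00027), and its relative ID3 fell from 293, 414 and 358 CPM to 220, 204 and 165 CPM (-0.85 ± 0.15, adjusted p 0.00352). The AP-1 subunit JUN fell from 11.1, 12.1 and 11.5 CPM to 5.31, 2.72 and 4.59 CPM (-1.46 ± 0.27, adjusted p 0.00538). In each of these genes the highest cisplatin library was below the lowest DMSO library, which the rule required for ABCB1, ID2 and JUN. ID3 had an adjusted p of 0.0588 without DMSO 2 and cisplatin 2. Other falls held in every leave-one-out fit were those of ACTR5 (-1.24), a subunit of the INO80 chromatin remodeller, DHRS2 (-1.27), TUBB2A (-1.16), the steroid sulfatase STS (-1.16) and OPN3 (-1.11). TOMM6, a small subunit of the mitochondrial import pore, had the largest fitted fall of the 12 (-3.27 ± 0.86, adjusted p 0.0397), with 64.1, 30.2 and 62.9 CPM in DMSO and 4.44, 4.33 and 7.56 CPM in cisplatin. That call was lost in 7 of 9 leave-one-out fits, Pt-ttpy 2 was as low as the cisplatin libraries (4.17 CPM) while Pt-ttpy 1 and 3 were at 43.2 and 43.3 CPM, and its exons overlap another annotated gene on the same strand. TREX2 (lost without DMSO 2 or cisplatin 1), EOMES (lost without DMSO 1) and P2RX5-TAX1BP3 (lost without 6 of the 9 libraries in turn) complete the 12.

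Genes of the cell cycle fell by small amounts. Of 51 tested genes of G2 and mitosis, 19 fell and none rose, beside backgrounds of 11.3% lower and 10.3% higher, with a median change of -0.32. Without DMSO 2 and cisplatin 2 the number lower was 32, still with none higher, and the median was -0.25. The mean level over the list was nevertheless close between groups: relative to the DMSO mean, the log2 score was 0.11, -0.15 and 0.05 in DMSO and -0.24, -0.46 and -0.12 in cisplatin, so that cisplatin 3 overlapped DMSO 2. AURKA, the spindle pole kinase, went from 169, 184 and 165 CPM to 118, 111 and 127 CPM (-0.54 ± 0.09, adjusted p 0.00404). KIF4A, a chromosome-bound kinesin, went from 111, 119 and 111 CPM to 77.2, 62.3 and 80.6 CPM (-0.63 ± 0.11, adjusted p 0.00425). CCNB1, the mitotic cyclin, went from 313, 340 and 300 CPM to 225, 203 and 252 CPM (-0.49 ± 0.10, adjusted p 0.0084), and the proliferation antigen MKI67 from 649, 596 and 648 CPM to 465, 325 and 497 CPM (-0.56 ± 0.14, adjusted p 0.0157). For these 4 genes the groups did not overlap. TOP2A, the decatenating topoisomerase, had 589, 375 and 554 CPM in DMSO and 532, 380 and 629 CPM in cisplatin, with overlapping groups (0.02 ± 0.19, adjusted p 0.948).

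Many promoters of G2 and mitosis genes hold the CHR element, the letters TTTGAA close to the start, through which the DREAM and B-MYB complexes set expression over the cell cycle, often beside CCAAT boxes bound by NF-Y. Both motifs were searched on both strands (TTTGAA or TTCAAA, and CCAAT or ATTGG) in the RefSeq promoters of GRCh38.p14, matched by symbol for 10698 tested genes. In the 60 bases before the start, the CHR letters were found in 15 of the 44 matched G2 and mitosis genes (34.1%) and in 157 of all 10698 (1.47%). Within that list they were in 6 of 14 genes called lower (42.9%) and 9 of 30 not called (30%), a difference that was not tested. Over all genes the share was 1.76% among those lower, 1.89% among those higher and 1.37% among those not called. CCAAT letters stood in the 250 bases before the start in 75% of the list and 35% of all genes. The 60 bases before the start are printed for the 6 genes called lower that hold the letters and for 3 of the 9 not called, as examples; capitals mark the CHR letters, and all 9 are on the plus strand.
KIF4A: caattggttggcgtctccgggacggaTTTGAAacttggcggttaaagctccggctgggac
CKS2: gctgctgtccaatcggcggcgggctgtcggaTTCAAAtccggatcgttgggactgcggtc
PLK1: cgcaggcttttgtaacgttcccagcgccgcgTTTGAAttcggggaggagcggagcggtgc
CKS1B: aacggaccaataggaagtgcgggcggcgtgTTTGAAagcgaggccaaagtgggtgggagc
INCENP: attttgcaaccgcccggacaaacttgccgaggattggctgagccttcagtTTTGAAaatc
CDCA8: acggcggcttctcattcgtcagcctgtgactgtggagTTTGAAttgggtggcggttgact
BUB1B: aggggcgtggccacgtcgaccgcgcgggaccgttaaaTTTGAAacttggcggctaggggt
CCNB2: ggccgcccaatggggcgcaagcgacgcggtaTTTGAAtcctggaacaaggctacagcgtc
KIF11: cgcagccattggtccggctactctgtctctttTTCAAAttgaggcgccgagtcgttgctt

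In GRCh38.p14 these windows are chrX:70290044-70290103 (KIF4A), chr9:89311135-89311194 (CKS2), chr16:23678829-23678888 (PLK1), chr1:154974621-154974680 (CKS1B), chr11:62123951-62124010 (INCENP), chr1:37692456-37692515 (CDCA8), chr15:40161009-40161068 (BUB1B), chr15:59105086-59105145 (CCNB2) and chr10:92593070-92593129 (KIF11). Counting back from the start, the element begins at -34 in KIF4A, -29 in CKS2, PLK1 and CCNB2, -30 in CKS1B, -10 in INCENP, -23 in CDCA8 and BUB1B, and -28 in KIF11. The fitted changes were -0.63 for KIF4A, -0.64 for CKS2 (a cyclin-dependent kinase subunit), -0.55 for the mitotic kinase PLK1, -0.32 for CKS1B, -0.37 for INCENP and -0.34 for CDCA8, the last pair being parts of the chromosomal passenger complex. The checkpoint kinase gene BUB1B (-0.32, adjusted p 0.0709), the cyclin gene CCNB2 (-0.18, adjusted p 0.18) and the spindle kinesin gene KIF11 (-0.23, adjusted p 0.47) did not pass. In the other 6 genes without a call the element begins at -55 in KIF23, -31 in ESPL1, -20 in PRC1 and -18 in CENPA, and ANLN and HMMR hold 2 copies. PLK1 overlaps an exon of ERN2 on the other strand.

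Genes of the G1/S transition and DNA replication gave 17 lower and none higher of 54 tested, with a median of -0.28. For the lists in this paragraph the background is 11.3% lower and 10.3% higher over all tested genes. ORC1, of the origin recognition complex, fell from 70.2, 82.7 and 74.8 CPM to 47.9, 43.7 and 52.7 CPM (-0.66 ± 0.12, adjusted p 0.00409), and CCNE1, the cyclin that starts S phase, fell from 42.5, 46.4 and 37.5 CPM to 30.07, 26.03 and 30.74 CPM (-0.54 ± 0.12, adjusted p 0.0111). CDC6 (-0.51) and the helicase subunits MCM2 (-0.40), MCM6 (-0.52) and MCM7 (-0.48) fell too. The number lower was 9, with 1 higher, under upper-quartile factors and under library totals, and 22, with 2 higher, without DMSO 2 and cisplatin 2. Of 25 damage checkpoint genes, 8 fell and none rose (11 and 3 without DMSO 2 and cisplatin 2, 7 and 1 under upper-quartile factors and library totals): CDC25A, the phosphatase destroyed when the checkpoint fires, fell from 113, 130 and 107 CPM to 74.5, 46.1 and 75.7 CPM (-0.83 ± 0.17, adjusted p 0.00731), CLSPN (-0.74) and HUS1 (-0.64) fell, and CHEK1 fell by 0.45 (adjusted p 0.0429), a call lost without 7 of the 9 libraries in turn. H2AX fell from 234, 310 and 227 CPM to 189, 148 and 186 CPM (-0.56 ± 0.14, adjusted p 0.0157). The kinase ATR overlapped between groups, with 53.1, 26.9 and 42.4 CPM in DMSO and 41.1, 27.8 and 47.3 CPM in cisplatin. Calls among replication-dependent histone genes went the other way, 7 of 29 higher and none lower (median 0.42). Their summed level overlapped between groups, at 148.9 to 171.9 CPM in DMSO and 161.5 to 198.1 CPM in cisplatin. H2AC11 rose from 3.21, 2.12 and 2.82 CPM to 8.34, 7.46 and 6.37 CPM (1.44 ± 0.24, adjusted p 0.00324), H2BC21 changed by 1.44 and H3C10 by 1.18. These genes make transcripts that mostly lack a poly(A) tail, and the labels name a kit for mRNA, so the part of them that was counted is not known.

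**Figure D3:**
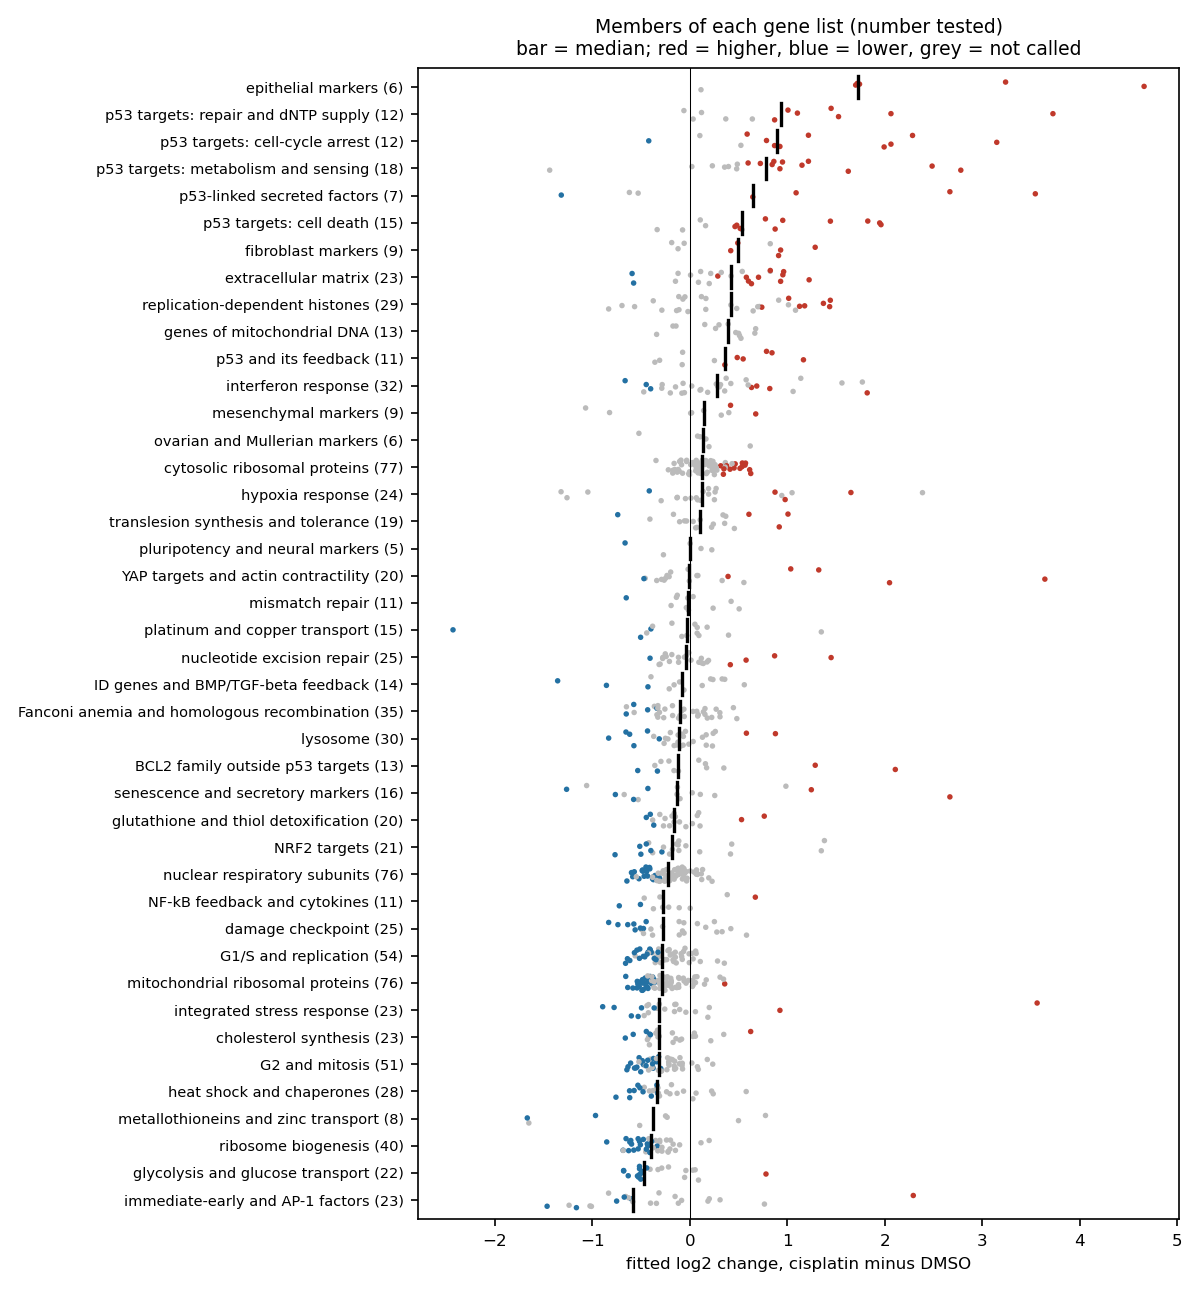
Every point is a tested member of a gene list, placed by its fitted log2 change, cisplatin minus DMSO, with red for higher, blue for lower and grey for not called; black bars are list medians and the number tested is in brackets. The p53 lists sit to the right with medians of 0.36 to 0.94, while the cell-cycle, ribosome biogenesis, glycolysis and chaperone lists sit a short way to the left of 0.

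Genes for repairing platinum damage were called in shares no larger than the 21.6% of all tested genes. Nucleotide excision repair had 4 of 25 genes higher and 1 lower (3 lower without DMSO 2 and cisplatin 2); besides DDB2 and XPC, GTF2H3, a subunit of the TFIIH helicase complex, rose from 67.4, 52.1 and 56.4 CPM to 85.8, 89.3 and 87.7 CPM (0.58 ± 0.11, adjusted p 0.00639). ERCC1, part of the nuclease that cuts beside the crosslink and a long-studied marker of platinum response, had 83.7, 104 and 86.9 CPM in DMSO and 141.7, 102.7 and 122.6 CPM in cisplatin. Its groups overlapped through DMSO 2 and cisplatin 2, the call (0.42 ± 0.13, adjusted p 0.0407) was lost without 7 of the 9 libraries in turn, and without DMSO 2 and cisplatin 2 together the change was 0.64 with an adjusted p of 1.85e-06. ERCC3, the TFIIH helicase, was the member that fell (-0.41 ± 0.11, adjusted p 0.0269), a call lost without DMSO 1 or cisplatin 2. The median of this list was -0.04, and it turned to 0.05 and 0.06 under upper-quartile factors and library totals.

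Of 35 Fanconi anemia and homologous recombination genes, 4 fell and none rose, close to the 11.3% lower over all tested genes. The numbers were 10 lower and 1 higher without DMSO 2 and cisplatin 2, 2 and 1 under upper-quartile factors, and 2 and 2 under library totals. Over all genes these fits called 2538 lower and 1910 higher, 903 and 1627, and 933 and 1673. EXO1, the end-resecting and mismatch repair nuclease, fell from 66.1, 60.5 and 66.4 CPM to 43.2, 33.7 and 46.0 CPM (-0.65 ± 0.13, adjusted p 0.00762), and RAD51D fell by 0.57 (adjusted p 0.0122). FANCD2, the central ubiquitinated protein of the Fanconi pathway, measured 89.4, 86.7 and 94.0 CPM in DMSO and 89.0, 91.1 and 106 CPM in cisplatin (0.08 ± 0.10, adjusted p 0.613). BRCA1 (-0.11 ± 0.20, adjusted p 0.726) also had overlapping groups and no call. In mismatch repair, which recognises platinum adducts and is tied to cisplatin sensitivity, EXO1 was the 1 gene called of 11. Translesion synthesis and tolerance had 3 of 19 genes higher and 1 lower (6 and 2 without DMSO 2 and cisplatin 2): besides POLH these were ZRANB3, a fork-remodelling enzyme (0.92 ± 0.20, adjusted p 0.00976), and POLI (0.61 ± 0.17, adjusted p 0.0279; lost without DMSO 2, DMSO 3, cisplatin 1 or cisplatin 3). MAD2L2, the REV7 subunit of polymerase zeta, fell from 55.2, 82.0 and 58.5 CPM to 36.6, 43.2 and 37.4 CPM (-0.74 ± 0.15, adjusted p 0.00725).

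Among the genes called in the lists for platinum entry, export and capture, ABCB1 and the metallothioneins MT1X and MT2A had the largest falls. Of 15 transport genes none rose and 3 fell. For this and the other lists in this paragraph the background is 10.3% higher and 11.3% lower over all tested genes. The copper importer SLC31A1 (CTR1), a known route of cisplatin uptake, measured 162, 150 and 169 CPM in DMSO and 118, 117 and 130 CPM in cisplatin (-0.40 ± 0.10, adjusted p 0.0159), and this call was lost without DMSO 3 or cisplatin 1. SLC22A5, a carnitine transporter, fell by 0.50 (adjusted p 0.0211; lost without DMSO 3, cisplatin 1 or cisplatin 3). The copper ATPases that export platinum did not pass: ATP7A had 20.51, 12.03 and 17.99 CPM in DMSO and 19.5, 14.9 and 18.9 CPM in cisplatin, and ATP7B had 28.33, 31.98 and 33.32 CPM against 33.3, 52.4 and 37.6 CPM (0.40 ± 0.16, adjusted p 0.0923). ABCC2, the organic anion pump MRP2, was below 1 CPM in all 6 libraries (1.35 ± 0.64, adjusted p 0.153). Of 8 tested metallothioneins and zinc transporters, 2 fell and none rose (4 and 1 without DMSO 2 and cisplatin 2): MT2A went from 21.02, 27.34 and 24.76 CPM to 13.3, 11.2 and 12.9 CPM (-0.97 ± 0.20, adjusted p 0.00821) and MT1X from 4.70, 3.35 and 5.32 CPM to 1.51, 1.16 and 1.54 CPM (-1.67 ± 0.27, adjusted p 0.00291). These proteins chelate metals through their cysteines, and both genes had lower levels in every cisplatin library. Among glutathione and thiol genes 2 of 20 rose and 3 fell, near those shares (2 and 8 without DMSO 2 and cisplatin 2). GGT1, which breaks down extracellular glutathione, rose from 24.2, 33.5 and 24.2 CPM to 40.0, 58.4 and 40.5 CPM (0.76 ± 0.17, adjusted p 0.0118), while GSR, glutathione reductase, fell by 0.40 (adjusted p 0.0117). GSTP1, the transferase most often linked to platinum conjugation, did not pass (-0.18 ± 0.12, adjusted p 0.303).

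Genes for growth and energy supply fell in several lists, beside 11.3% lower over all tested genes. Ribosome biogenesis had 19 of 40 lower and none higher (28 lower without DMSO 2 and cisplatin 2), with a median of -0.40. NOP16, a nucleolar factor of the large subunit, fell from 71.8, 85.6 and 73.7 CPM to 47.3, 31.5 and 49.4 CPM (-0.85 ± 0.16, adjusted p 0.0051), NOP56, a core protein of box C/D particles, fell from 262, 310 and 265 CPM to 207, 147 and 200 CPM (-0.60 ± 0.13, adjusted p 0.0101), and GAR1 fell by 0.68 (adjusted p 0.00935). Of 77 cytosolic ribosomal protein genes, 15 rose and none fell, beside 10.3% higher over all tested genes, and the median was 0.13 (21 higher under library totals, and 19 higher with 1 lower without DMSO 2 and cisplatin 2). RPL22 rose from 304, 248 and 285 CPM to 403, 442 and 372 CPM (0.54 ± 0.10, adjusted p 0.00589). These genes have many processed pseudogene copies, so that reads can be split among them. MYC, a driver of ribosome production, had 230, 233 and 186 CPM in DMSO and 228, 135 and 192 CPM in cisplatin, with overlapping groups (-0.23 ± 0.17, adjusted p 0.361).

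Mitochondrial ribosomal protein genes had 27 of 76 lower and 1 higher (MRPL45, 0.36). For the lists in this paragraph the background is 11.3% lower and 10.3% higher over all tested genes. Under upper-quartile factors the numbers were 16 and 3, under library totals 18 and 3, and without DMSO 2 and cisplatin 2 32 and 3. MRPS15 fell from 99.8, 116 and 97.2 CPM to 70.5, 73.4 and 74.0 CPM (-0.52 ± 0.10, adjusted p 0.00605). Of 76 nuclear genes for respiratory subunits, 19 fell and none rose (31 fell without DMSO 2 and cisplatin 2, and 11 and 12 under upper-quartile factors and library totals); SDHB, of complex II, fell from 120, 143 and 124 CPM to 80.8, 79.0 and 87.6 CPM (-0.64 ± 0.10, adjusted p 0.00264). The genes of mitochondrial DNA itself had none of 13 called, and the 3 cisplatin libraries disagreed: their log2 scores were 1.18, -1.67 and 0.10 relative to the DMSO mean. Glycolysis and glucose transport had 12 of 22 genes lower and 1 higher, with a median of -0.47 (-0.22 without DMSO 2 and cisplatin 2). GAPDH fell from 3122, 4066 and 3199 CPM to 2371, 2211 and 2581 CPM (-0.54 ± 0.11, adjusted p 0.00895), TPI1, whose exons overlap SPSB2, by 0.68 (adjusted p 0.00537) and LDHA, lactate dehydrogenase, from 1690, 1686 and 1644 CPM to 1099, 779 and 1259 CPM (-0.68 ± 0.15, adjusted p 0.0102). SLC16A3, the lactate exporter MCT4, was the gene that rose (0.78 ± 0.14, adjusted p 0.00522), with an adjusted p of 0.07 without DMSO 2 and cisplatin 2. For GAPDH, TPI1 and LDHA all 3 cisplatin libraries lay below all 3 DMSO libraries.

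**Figure D4:**
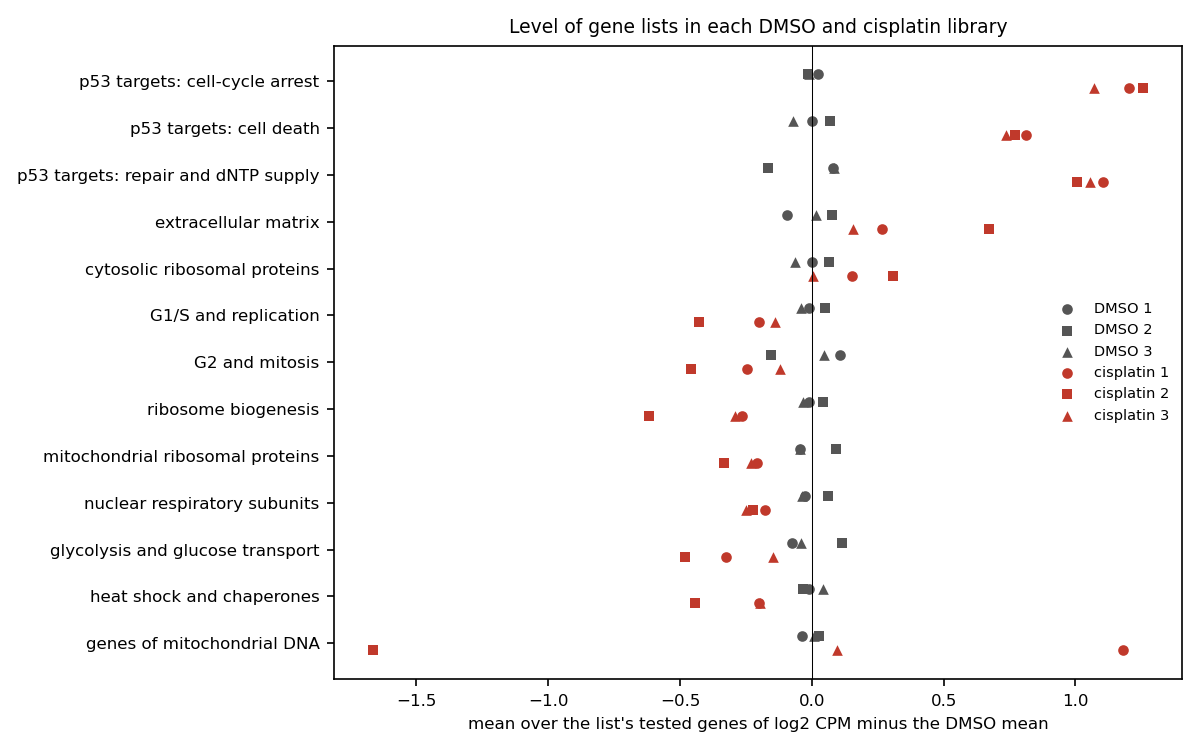
For each gene list the points give 1 library, as the mean over tested members of log2 CPM minus the DMSO mean, with circles, squares and triangles for libraries 1, 2 and 3, grey for DMSO and red for cisplatin. The p53 lists separate the groups widely (arrest: -0.01 to 0.02 in DMSO, 1.07 to 1.26 in cisplatin), cisplatin 2 is the lowest point in most of the falling lists, and mitochondrial DNA genes spread from -1.67 to 1.18 among the cisplatin libraries.

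In the chaperone, integrated stress response and NRF2 lists more genes fell than rose, beside 11.3% lower and 10.3% higher over all tested genes. Heat shock and chaperone genes had 10 of 28 lower and none higher (16 lower and 1 higher without DMSO 2 and cisplatin 2); HSPA8, the constitutive cytosolic HSP70, fell from 3071, 3491 and 3307 CPM to 2101, 1496 and 2243 CPM (-0.76 ± 0.13, adjusted p 0.00434), and HSPA5, its counterpart in the endoplasmic reticulum, fell from 1214, 1269 and 1164 CPM to 931, 912 and 933 CPM (-0.39 ± 0.08, adjusted p 0.00792). In the integrated stress response list 2 of 23 rose and 6 fell (2 and 15 without DMSO 2 and cisplatin 2). SLC7A5, the leucine transporter, fell from 490, 651 and 530 CPM to 295, 323 and 282 CPM (-0.89 ± 0.12, adjusted p 0.000674), while NUPR1, a small chromatin protein induced by many stresses, rose from 0.28, 1.06 and 0.30 CPM to 5.25, 11.01 and 3.05 CPM (3.56 ± 0.57, adjusted p 0.0026). ATF3, a stress-induced transcription factor, measured 1.10, 0.515 and 0.499 CPM in DMSO and 0.58, 1.23 and 0.593 CPM in cisplatin (0.20 ± 0.45, adjusted p 0.787). NRF2 targets had 6 of 21 lower and none higher (2 lower under upper-quartile factors, 4 under library totals, and 8 lower with 2 higher without DMSO 2 and cisplatin 2), among them the ferritin light chain FTL (-0.51, adjusted p 0.0212; lost without cisplatin 1 or cisplatin 3).

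Lipid, lysosome and oxygen-response genes were called in both directions, beside 11.3% lower and 10.3% higher over all tested genes. Cholesterol synthesis had 5 of 23 genes lower and 1 higher, but 2 and 2 under upper-quartile factors, 1 and 2 under library totals, and 7 and 3 without DMSO 2 and cisplatin 2. DHCR7, the last enzyme of the pathway, fell from 326, 435 and 337 CPM to 257, 210 and 267 CPM (-0.58 ± 0.13, adjusted p 0.01), and TM7SF2 was the riser (0.63; lost without DMSO 3). Of 30 lysosomal genes 6 fell and 2 rose (5 and 4 under library totals, 8 and 5 without DMSO 2 and cisplatin 2): the sialidase NEU1 fell from 174, 231 and 176 CPM to 121, 112 and 136 CPM (-0.65 ± 0.12, adjusted p 0.00586), while the acid lipase LIPA, whose exons overlap IFIT2, rose from 546, 504 and 520 CPM to 839, 693 and 817 CPM (0.58 ± 0.09, adjusted p 0.00282). Hypoxia-response genes had 3 of 24 higher and 1 lower (none lower under upper-quartile factors and library totals, 3 lower without DMSO 2 and cisplatin 2). DDIT4, which restrains mTORC1 and is induced by several stresses, went from 44.2, 46.8 and 69.6 CPM to 94.8, 258 and 152 CPM (1.65 ± 0.31, adjusted p 0.00669, and 0.0856 without DMSO 2 and cisplatin 2), the highest value being in cisplatin 2. VEGFA, the angiogenic factor, did not pass (-0.29, adjusted p 0.0533). Of 11 NF-kB feedback and cytokine genes 1 rose and 2 fell, NFKB1 among them (-0.51 ± 0.11, adjusted p 0.0118).

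The interferon list had 4 of 32 higher and 3 lower, close to the 10.3% higher and 11.3% lower over all tested genes. The same shares are the background for the other lists in this paragraph. The interferon numbers were 7 and 2 under upper-quartile factors, 8 and 2 under library totals, and 6 and 3 without DMSO 2 and cisplatin 2. TAP1, the peptide transporter of antigen presentation, rose from 20.4, 27.2 and 19.3 CPM to 36.7, 48.3 and 33.2 CPM (0.82 ± 0.17, adjusted p 0.00792). OAS2 rose by 1.82. In the AP-1 list 1 of 23 genes rose and 5 fell (1 and 3 under upper-quartile factors, 2 and 3 under library totals, 3 and 3 without DMSO 2 and cisplatin 2). FOSL1, the FRA-1 subunit, named here after its values were seen, was the riser, from 5.18, 4.90 and 4.54 CPM to 25.6, 26.6 and 19.5 CPM (2.29 ± 0.17, adjusted p 1.61e-05), in the opposite direction from JUN and from JUNB (-0.75 ± 0.18, adjusted p 0.0156, and 0.154 without DMSO 2 and cisplatin 2). Of 16 senescence and secretory markers, 2 rose and 4 fell (3 and 2 under upper-quartile factors, 2 and 2 under library totals). LMNB1, the nuclear lamina gene that declines in senescent cells, was among those lower (-0.43 ± 0.11, adjusted p 0.0168), while the cytokine genes IL6 and CXCL8 had 0 to 2 reads in each library. Outside the p53 targets, the BCL2 family had BMF (2.11 ± 0.45, adjusted p 0.00928) and BIK (1.29 ± 0.32, adjusted p 0.0182; lost without cisplatin 1) higher and BCL2L12 (-0.53 ± 0.13, adjusted p 0.0183) and MCL1 (-0.33 ± 0.11, adjusted p 0.0478; lost without 7 of the 9 libraries in turn) lower. BMF and BIK are killers of the BH3-only class and MCL1 is a survival protein; 1 gene of the list was called lower under upper-quartile factors and under library totals. BCL2 itself had overlapping groups near 1 to 2 CPM (0.35 ± 0.40, adjusted p 0.567).

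Some genes of cell shape and identity rose, beside 10.3% higher and 11.3% lower over all tested genes. In the list of YAP targets and actin contractility 5 of 20 rose and 1 fell (7 and 2 without DMSO 2 and cisplatin 2). The list was mixed, with a median change of -0.01 and 11 of the 20 fitted changes below 0. ACTA2, smooth muscle actin, went from 2.11, 1.77 and 1.97 CPM to 24.6, 27.8 and 20.9 CPM (3.64 ± 0.21, adjusted p 4.63e-06), TAGLN from 5.29, 8.99 and 5.62 CPM to 21.3, 12.8 and 15.7 CPM (1.32 ± 0.24, adjusted p 0.00471) and CALD1, caldesmon, from 148, 94.7 and 138 CPM to 293, 167 and 322 CPM (1.04 ± 0.22, adjusted p 0.00943). ACTA2 overlaps FAS on the opposite strand, so that without strand some reads of 1 could be counted for the other. Extracellular matrix genes had 10 of 23 higher and 2 lower (1 lower under upper-quartile factors and library totals and without DMSO 2 and cisplatin 2): COL3A1 rose from 488, 485 and 472 CPM to 778, 1183 and 798 CPM (0.93 ± 0.14, adjusted p 0.00187) and LAMA5 from 170, 201 and 173 CPM to 277, 418 and 269 CPM (0.83 ± 0.15, adjusted p 0.00516), while the basement membrane protein NID1 fell from 474, 605 and 525 CPM to 371, 348 and 346 CPM (-0.59 ± 0.10, adjusted p 0.00346). Fibroblast markers, which share COL3A1 with that list, had 5 of 9 higher, and their summed level was 1101 to 1208 CPM in DMSO and 1754 to 1999 CPM in cisplatin. In these bulk samples a change in the number of cells of a type and a change in RNA per cell cannot be told apart.

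Of 14 epithelial markers 6 had enough counts to test, and 5 of these were higher, beside 10.3% higher over all tested genes. A member near 0 in DMSO, such as KRT8 (6, 0 and 0 reads), was tested only through its reads in the drug groups. The share among tested members therefore leans towards rises. The summed level of the 6 was 8.56 to 11.9 CPM in DMSO and 22.9 to 49.2 CPM in cisplatin, which is still low. CLDN4 rose from 1.72, 2.55 and 1.97 CPM to 9.60, 6.58 and 4.71 CPM (1.74 ± 0.30, adjusted p 0.00379), TJP3 from 6.08, 6.30 and 4.82 CPM to 11.1, 32.6 and 12.8 CPM (1.72 ± 0.35, adjusted p 0.00759), and KRT8 from 0.169, 0 and 0 CPM to 1.64, 1.78 and 1.01 CPM (4.66 ± 0.96, adjusted p 0.00786). CLDN7 (1.70; lost without DMSO 1, DMSO 3 or cisplatin 2) and EPCAM (3.24; lost without 8 of the 9 libraries in turn), the latter named after its values were seen, were the other members higher. The defining genes CDH1, KRT7, KRT18 and KRT19 had 0 to 9 reads in each of the 6 libraries and were not tested. Mesenchymal markers had 2 of 9 higher, TWIST1 (0.42 ± 0.10, adjusted p 0.0122; lost without DMSO 3) and S100A4 (0.68 ± 0.12, adjusted p 0.00457), and VIM, the mesenchymal filament, measured 4922, 6128 and 4957 CPM in DMSO and 5984, 8964 and 6190 CPM in cisplatin (0.40, adjusted p 0.0743).

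The direct comparison with Pt-ttpy asked which of these levels differ between 2 platinum compounds, each at its labelled IC80, though the doses differ (0.6 against 5.5 uM). It called 78 of the 13383 genes (0.583%), 69 with a higher level in cisplatin and 9 with a lower one. Both drugs are compared with the same DMSO libraries elsewhere, so the drug groups are set against each other directly here. The libraries of the 2 drugs did not overlap for any of the 78, which were picked by a test on the same libraries. Of the 71 tested p53 pathway genes, 19 were among them. CDKN1A had the lowest adjusted p, with 29.9, 36.3 and 30.8 CPM in Pt-ttpy against 142.0, 160.2 and 113.8 CPM in cisplatin (cisplatin minus Pt-ttpy 2.10 ± 0.14, adjusted p 7.57e-05). GDF15 had 15.1, 16.3 and 12.9 CPM in Pt-ttpy (difference 2.75 ± 0.22, adjusted p 0.000254), BTG2 32.5, 38.3 and 33.3 CPM (1.36 ± 0.11, adjusted p 0.000298) and INPP5D 4.95, 5.92 and 5.6 CPM (2.99 ± 0.28, adjusted p 0.000605). BAX had 37.6, 37.3 and 37.0 CPM in Pt-ttpy, within its DMSO range of 33.9 to 45.0 CPM (difference 0.94 ± 0.13, adjusted p 0.00707), and MDM2 had 174, 179 and 166 CPM (difference 0.88 ± 0.15, adjusted p 0.0241).

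Some p53 targets were not called between the drugs. PPM1D differed by 0.35 (adjusted p 0.237), CCNG1 by 0.25 (adjusted p 0.737), RRM2B by 0.70 (adjusted p 0.371) and XPC by 0.62 (adjusted p 0.0695), which does not show that the drugs act alike on them. Chosen after their values were seen, PHLDA3 (119, 137 and 122 CPM in cisplatin, 53.5, 54.6 and 47.3 CPM in Pt-ttpy; difference 1.28 ± 0.14), an inhibitor of AKT, ZMAT3 (1.08 ± 0.13), an RNA-binding protein of the p53 programme, and NOTCH1 (0.90 ± 0.12) were among the other genes higher in cisplatin. Of the 9 genes with lower levels in cisplatin, 6 were in the glycolysis or hypoxia lists. PDK1, which blocks pyruvate entry into mitochondria, had 33.4, 25.3 and 48.8 CPM in cisplatin, 85.5, 102 and 87.7 CPM in Pt-ttpy and 30.8, 20.9 and 37.3 CPM in DMSO (difference -1.36 ± 0.24, adjusted p 0.0301). SLC2A1, the glucose transporter GLUT1, had 78.6, 56.3 and 98.7 CPM in cisplatin and 141, 169 and 140 CPM in Pt-ttpy (difference -0.95 ± 0.17, adjusted p 0.0301), and its DMSO libraries lay in between at 116.7 to 123.4 CPM. PFKFB4 (-0.91), ALDOC (-0.86), HK2 (-0.79) and LDHA (-0.77) were the remaining 4 of these. None of the 51 G2 and mitosis, 54 G1/S, 40 ribosome biogenesis or 28 chaperone genes was called between the drugs, where the whole comparison called 78 genes at an adjusted p under 0.05 and 1145 at an unadjusted p under 0.05. The number called depended on single libraries: it ranged from 18 without Pt-ttpy 1 or Pt-ttpy 3 and 21 without Pt-ttpy 2, through 36 without cisplatin 1, to 150 without DMSO 2, and it was 794 without DMSO 2 and cisplatin 2 together.

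**Figure D5:**
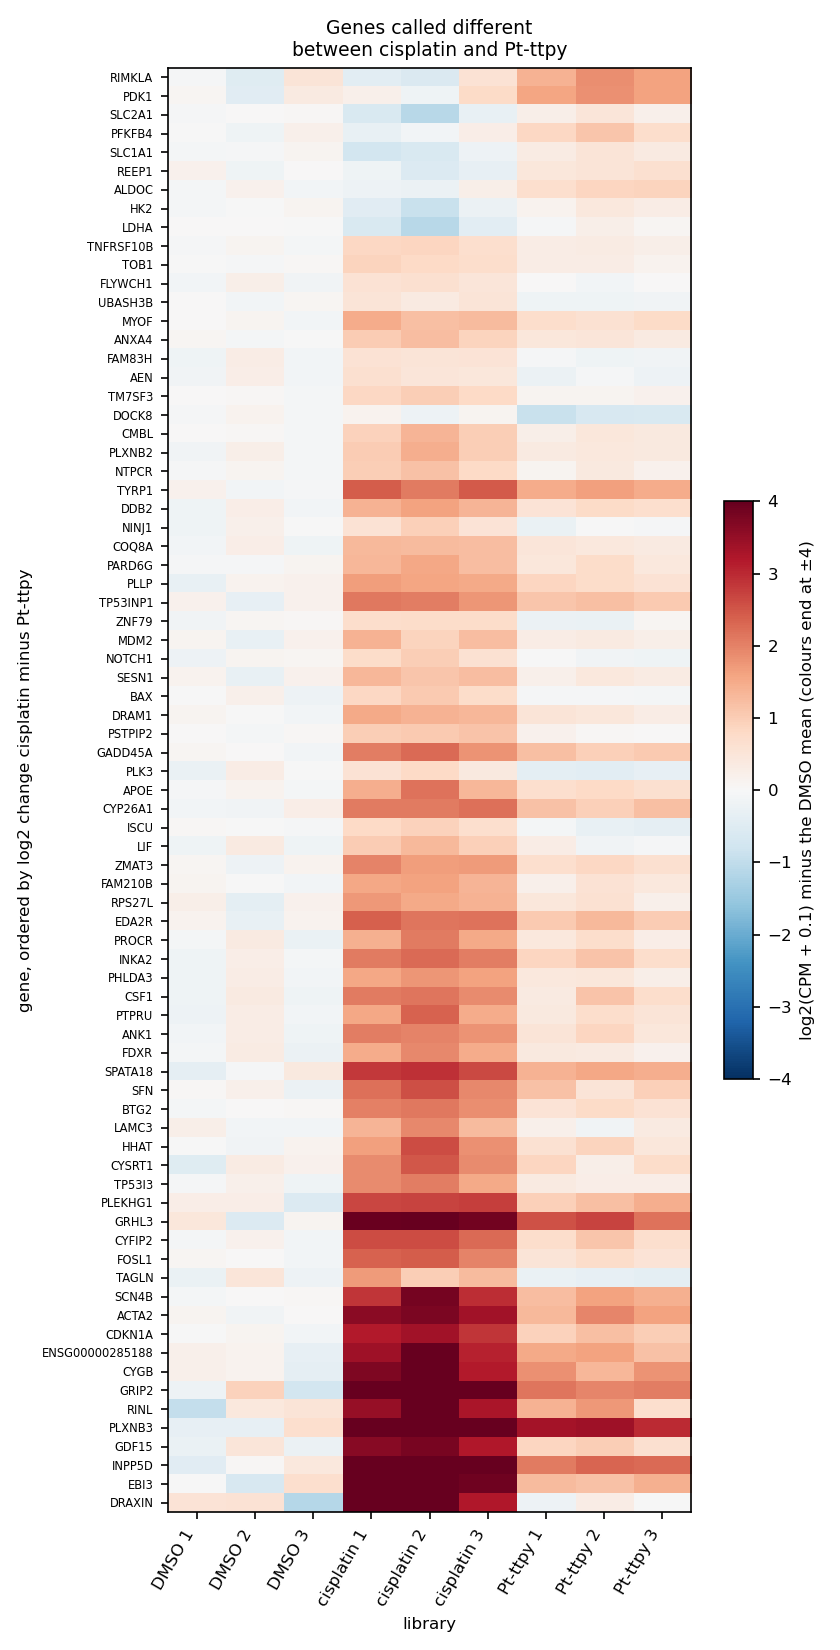
Each row is a gene called different between cisplatin and Pt-ttpy (77 of the 78 are drawn) and each column 1 of the 9 libraries; colour gives log2(CPM + 0.1) minus the DMSO mean, with the scale ending at 4 in either direction. The 68 lower rows are redder in all 3 cisplatin columns than in the Pt-ttpy columns, and the 9 rows at the top, led by RIMKLA and PDK1, are redder in Pt-ttpy.

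Over all tested genes gene span had little rank relation to the cisplatin change, while the class of longest genes leaned towards rises. Over the 13383 genes the rank correlation between genomic span and log2 change was 0.061, given as a description across genes that share libraries and base composition, and -0.005 without DMSO 2 and cisplatin 2. The 430 genes that span over 316 kb had a median change of 0.20, with 17.4% higher and 4.2% lower, while the 2620 genes under 10 kb had a median of -0.05, with 11.5% higher and 14.7% lower. Without DMSO 2 and cisplatin 2 the medians of these classes were 0.12 and 0.01. In that fit 20.4% of the longest class were higher and 8% lower, against 14% and 17.7% of the shortest class. Long genes also had lower GC content (44.3 against 56.7% median), the property on which DMSO 2 and cisplatin 2 differed from the rest. The classes of 32 to 100 and 100 to 316 kb had a median GC content of 45.6 and 44.8%. Their median changes were -0.04 and 0.01 in the fit of all 9 libraries. Whether base composition bears on the changes of long genes was not tested.

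Exons of several genes named above overlap those of another gene, and their values carry that uncertainty where strand was not used. Beside the pairs already given, an exon on the same strand is shared or overlapped in PDE4C, GGT1, RPL22, RRM2, OPN3, RAD51D, TM7SF2, CLDN7, TREX2, P2RX5-TAX1BP3, CHEK1, BUB1B, ATP7A and PFKFB4. On the opposite strand the same holds for POLH, CYGB, GRIP2, PRODH, TAGLN, LAMA5, KRT8, ERCC1, KIF4A, SLC16A3, JUNB, NOP16, GTF2H3, ZRANB3, BCL2L12, THBS1, MCM2, MCM7, PIDD1, APAF1, FANCD2 and CLDN6. OPN3, RPL22, CLDN7 and P2RX5-TAX1BP3 have overlaps on both strands.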

How the data were processed

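RNA of 9 A2780 cultures (3 libraries each of DMSO, cisplatin and Pt-ttpy) was prepared from 1.3 ug total RNA with a SMARTER mRNA kit, per the labels' protocols. The authors deposited 1 table of raw read counts per gene for all 9 libraries; the genome was GRCh38, per the submitters' processing notes, and the sources used here give no aligner, counter, annotation or strand setting. All 9 columns were matched to samples by name, and 0 columns of per-sample values were left unmapped.

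Counts were filtered with filterByExpr (minimum count 10), scaled by TMM and fitted with edgeR 4.0.16 (robust quasi-likelihood, all 9 libraries, 1 mean a group) in R 4.3.3, with Benjamini-Hochberg adjustment over 15558 rows, including 2175 rows named newGene, and a threshold of 0.05. The SE is the absolute log2 change divided by the square root of F, and the prior count was 0.125. GENCODE 29 gave positions, spans and exon overlaps; RefSeq (GRCh38.p14) gave promoters. Named genes were the 12 largest rises and 12 largest falls among genes that have a symbol, reach a mean of 5 CPM with DMSO or cisplatin and whose libraries do not overlap, 38 chosen genes, up to 4 called members of each list by adjusted p, and 4 genes (EPCAM, TRIM22, FOSL1, MT1F) named after their values were seen; log2 changes of further list members come from the same fit. The 45 gene lists (1167 symbols, 4 without a match) and these genes were chosen with earlier results of these data known, so their counts are descriptions. Alternatives were DESeq2 1.42.0, limma-voom (limma 3.58.1), other scalings and filters, a replicate block and left-out libraries. P-values measure the spread between these samples; labels call the replicates biological but tie no number to a day or culture. Some genes are not reported here.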

Additional observations from a re-analysis of the deposited data

Results flagged for a closer look

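Rows of the table named newGene, which carry no Ensembl identifier and were not part of the comparison by gene, were also tested in the same fit. Of 2175 such rows, 284 were higher with cisplatin than with DMSO and 14 were lower, with a median log2 change of 0.42, beside -0.03 over the Ensembl genes. Their share of the counts was 1.951, 1.563 and 1.673% in DMSO libraries 1 to 3 and 2.182, 2.089 and 1.879% in cisplatin libraries 1 to 3, so DMSO 1 overlapped the cisplatin range. What these rows are was not tested.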

How the results depend on the processing

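Against 2892 genes changed between cisplatin and DMSO, 1141 were called with the 6 DMSO and cisplatin libraries alone, 4448 without DMSO 2 and cisplatin 2, 4646 with a correction for GC content chosen after seeing the data, 682 at 2-fold or more and 848 at an adjusted p under 0.01. Leaving out 1 library gave 1827 (without cisplatin 2; 1832 without DMSO 3) to 2858. With the replicate block the count was 2842 over 6 libraries, 3407 over 9, and 3442 with a GC correction. Deviations of same-numbered DMSO and cisplatin libraries correlated at 0.1, 0.221 and 0.082, and other pairs at -0.145 to 0.065; each library correlated best with its own number, a hint from the data and not the design. Upper-quartile factors gave 2530, library totals 2606, DESeq2 3554 and limma-voom 2882. No gene called in the main test was called in the opposite direction in any of these 23 fits. Of 170 named genes that were called, 135 kept their call in all 9 leave-one-out fits, and 162 were called without DMSO 2 and cisplatin 2. Against 78 genes differing between cisplatin and Pt-ttpy, 794 were called without DMSO 2 and cisplatin 2, and 18 to 150 with 1 library left out. The median of the BCL2 family list, -0.12, turned to 0.017 without DMSO 2 and cisplatin 2 and lay between -0.222 (without DMSO 3) and 0.035 (without DMSO 1) with 1 library left out; the cause was not tested. Depth limits genes under about 1 CPM, where 1 library decides more calls.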

Other observations

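Some gene families outside the lists also moved, each picked after its values were seen and given with no test of the family. Over all tested genes 10.3% were higher and 11.3% lower. Of 14 tested genes of the protocadherin beta cluster, neuronal adhesion proteins encoded side by side on chromosome 5, 11 rose and none fell (8 without DMSO 2 and cisplatin 2), and their summed level was 87.1 to 95.2 CPM in DMSO and 139.6 to 180 CPM in cisplatin. In Pt-ttpy the same sum was 150.1 to 166 CPM, and none of the 14 differed between the drugs. In the protocadherin gamma cluster 11 of 22 rose, but all 22 share exons with each other, and in the alpha cluster none of 13 was called. Collagen chains had 11 of 24 higher and none lower (median 0.81), and semaphorins 6 of 17. Subunits of the proteasome lid and base went the other way, 10 of 20 lower and none higher (16 without DMSO 2 and cisplatin 2, median -0.39), as did 5 of 16 core subunits, 10 of 34 RNA polymerase subunits with 1 higher, 11 of 33 DEAD-box helicases with 2 higher, and 6 of 15 genes of import across the mitochondrial inner membrane.

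Genes with 0 reads in each DMSO library gave 17 of the rises, and 15 of these had reads in each cisplatin library. Such genes reached the test only through reads in the drug groups and could only be called higher. Their direction was therefore set by the choice and is no result. The number of all tested genes with 0 DMSO reads is not given. The mean cisplatin level was divided by a floor of 3 reads over the 3 DMSO libraries. That ratio bounds the DMSO side only and leaves out the spread among cisplatin libraries. It ran from 6.6 (SPARCL1, with 6, 2 and 10 reads in cisplatin) to 42.6 (HHATL, with 35, 50 and 39 reads in cisplatin). FOXS1, a forkhead factor, had 14, 78 and 29 reads in cisplatin and a ratio of 38.8. TNNC2 and TNNT3, troponin subunits of fast skeletal muscle, had 25, 42 and 23 and 10, 12 and 11 reads, with ratios of 30.5 and 11.5. CLCA2, a chloride channel regulator known as a p53 target, had 30, 39 and 28 reads (ratio 33.4). GBP2, an interferon-induced GTPase whose exons overlap GBP7, had 12, 25 and 20 reads (ratio 19.3). All of these levels stayed under 2 CPM in every cisplatin library, where counting error is large.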
